A study of Mus musculus with 6 samples.

Results

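The genes described here are 32 immediate-early and stress genes, transcripts that cells raise within a short time of a stimulus and that tissue dissociation is known to induce. They were taken from a fixed list of symbols and matched to the array annotation, and all 32 were found among the 18193 genes with a probe set of their own. Of these members, 12 were handled as activity-linked genes of neurons (Fos, Fosb, Junb, Egr1, Egr2, Egr3, Egr4, Nr4a1, Nr4a2, Nr4a3, Arc and Npas4), 18 as general stimulus and stress genes, and 2, Hspa1a and Hspa1b, as heat-shock genes. Together they are covered by 58 probe sets, and the brightest of each gene was used.

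Transcript levels were read on 6 Affymetrix mouse arrays from retinal ganglion cells, the output neurons of the retina, from C57BL/6 mice at postnatal day 6. The groups were cells positive for both GFP and Thy1 from the Hb9 line, cells positive for both GFP and Thy1 from the Drd4 line, and Thy1+ cells with no GFP requirement, with 2 arrays each from different litters. Both GFP lines are known to mark kinds of ganglion cell that respond to the direction of motion, whereas the surface protein Thy1 marks ganglion cells in general. All 3 groups shared papain dissociation, sorting by flow cytometry and 2 rounds of RNA amplification, so no array shows these genes in undisturbed tissue. How the GFP reporters were built, how many cells were sorted and how long they spent in suspension are details not given in the sources used here.

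Immediate-early genes are transcribed without prior protein synthesis when calcium entry, growth factors or cell stress activate kinases that act on factors already bound at their promoters, chiefly serum response factor with its partners and the cAMP response element binding protein. Many of their products are transcription factors, such as the Fos and Jun subunits of AP-1 and the Egr zinc finger proteins. Others end the response, among them the Dusp phosphatases of mitogen-activated kinases and the mRNA decay factor Zfp36. The inducible Hsp70 genes Hspa1a and Hspa1b are switched on by heat shock factor when proteins unfold.

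The promoters of 4 members are given as examples of the motif letters that were searched. Promoter sequences were available for 27 of the 32 members and were taken from RefSeq on GRCm38.p6, as the 250 bases before the start of each gene. Arc, Egr1, Egr3, Ier2 and Myc had no such sequence and were not searched. Sites further upstream of any member were not searched either. Those of Fos (chr12:85473640-85473889, plus strand), Npas4 (chr19:4989972-4990221, minus strand), Zfp36 (chr7:28379229-28379478, minus strand) and Hspa1b (chr17:34959239-34959488, minus strand) are given 5′ to 3′ along the gene. Fos and Npas4 stand for the activity-linked class at high and at undetected signal, Zfp36 for the general class and Hspa1b for the heat-shock class. Capitals mark TGACG or its reverse complement and TATAAA in Fos, TGACG and its reverse complement in Npas4, the CArG box in Zfp36 and GAANNTTC in Hspa1b.
Fos: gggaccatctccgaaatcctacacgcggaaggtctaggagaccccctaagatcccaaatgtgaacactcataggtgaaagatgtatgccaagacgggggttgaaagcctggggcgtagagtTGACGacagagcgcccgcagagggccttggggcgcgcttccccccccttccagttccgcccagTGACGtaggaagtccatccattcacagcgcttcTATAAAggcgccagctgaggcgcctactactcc
Npas4: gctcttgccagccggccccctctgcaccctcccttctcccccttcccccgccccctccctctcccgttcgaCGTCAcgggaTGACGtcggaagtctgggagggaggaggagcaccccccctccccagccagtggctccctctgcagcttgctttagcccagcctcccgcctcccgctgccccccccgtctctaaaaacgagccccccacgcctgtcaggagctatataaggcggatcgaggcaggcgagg
Zfp36: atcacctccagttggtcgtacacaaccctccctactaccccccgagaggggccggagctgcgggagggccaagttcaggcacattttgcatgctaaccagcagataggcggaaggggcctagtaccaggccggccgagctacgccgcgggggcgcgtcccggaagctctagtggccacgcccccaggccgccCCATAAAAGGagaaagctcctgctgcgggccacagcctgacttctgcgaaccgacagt
Hspa1b: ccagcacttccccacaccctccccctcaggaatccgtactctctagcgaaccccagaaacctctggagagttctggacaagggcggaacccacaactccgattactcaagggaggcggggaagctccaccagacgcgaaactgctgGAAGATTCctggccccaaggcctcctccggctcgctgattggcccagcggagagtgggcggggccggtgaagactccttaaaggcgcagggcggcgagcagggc

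6 short motifs were searched on both strands of these windows and of the same windows of 27025 genes. TGACG, the core of the cAMP response element, occurred in 15 of the 27 members (55.6%) and in 19.8% of all genes. It was present in 9 of 9 activity-linked members with a window, in 6 of 16 general members and in neither heat-shock member. In Fos the matches began 129 and 66 bases before the start of the gene, with TATAAA at 33 bases. In Npas4 they lay at 179 and 169 bases. The full palindrome TGACGTCA, which contains TGACG, was found in Dusp1 and Btg2 and in 1.77% of all genes.

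The CArG box, to which serum response factor binds, lay in the windows of Egr2, Dusp5 and Zfp36, which is 11.1% of the members against 1.62% of all genes. In Zfp36 it began 58 bases before the start. GAANNTTC, a pair of the repeats that heat shock factor recognises, was found in Fosl2, Jun, Hspa1a and Hspa1b (14.8% of the members and 7.73% of all genes). The longer heat shock element, with a further GAA after that pair, was in none of the 27 members and in 0.514% of all genes. TATAAA was in Fos, Nr4a2 and Gadd45b (11.1% against 14.3%). The windows of Hspa1a and Hspa1b differed at 3 of 250 positions. Such matches describe letters in these windows and were not tested as binding sites.

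On the arrays the signal was read against a background reference, the brightest bacterial control probe set of each array, which lay between 4.95 and 5.38 on the log2 intensity scale. Against it, 31 of the 32 members were above background on at least 1 array and 26 on all 6. Npas4 was above it on none, Egr2 on 1, Klf4 on 2, Fosb and Junb on 3 each, and Arc on 5. Over all genes, 68.2% to 78.9% were above background per array, and the array medians of intensity were 45.5 to 47.7.

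The sorted cells carried the markers of ganglion cells, of which 12 of 13 measured were above background on all 6 arrays and Pou4f3 was not. Their summed intensity was 34773 and 33903 on the Hb9 arrays, 32810 and 32006 on the Drd4 arrays, and 31411 and 31193 on the Thy1 arrays. Of the ganglion cell markers, Nefm was called higher in Hb9 than in Thy1 (limma, adjusted p under 0.05), where 3.52% of all genes were. In Drd4, 2 were lower (Isl1, at -1.74, and Ebf1) and 3 higher, Pou4f3 among them. The shares of all genes there were 3.96% and 1.51%. Photoreceptor markers summed to between 360 and 399 on every array. Some markers of microglia, of vascular cells and of dividing cells were brighter in the Thy1 group and are given further below.

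**Figure D1:**
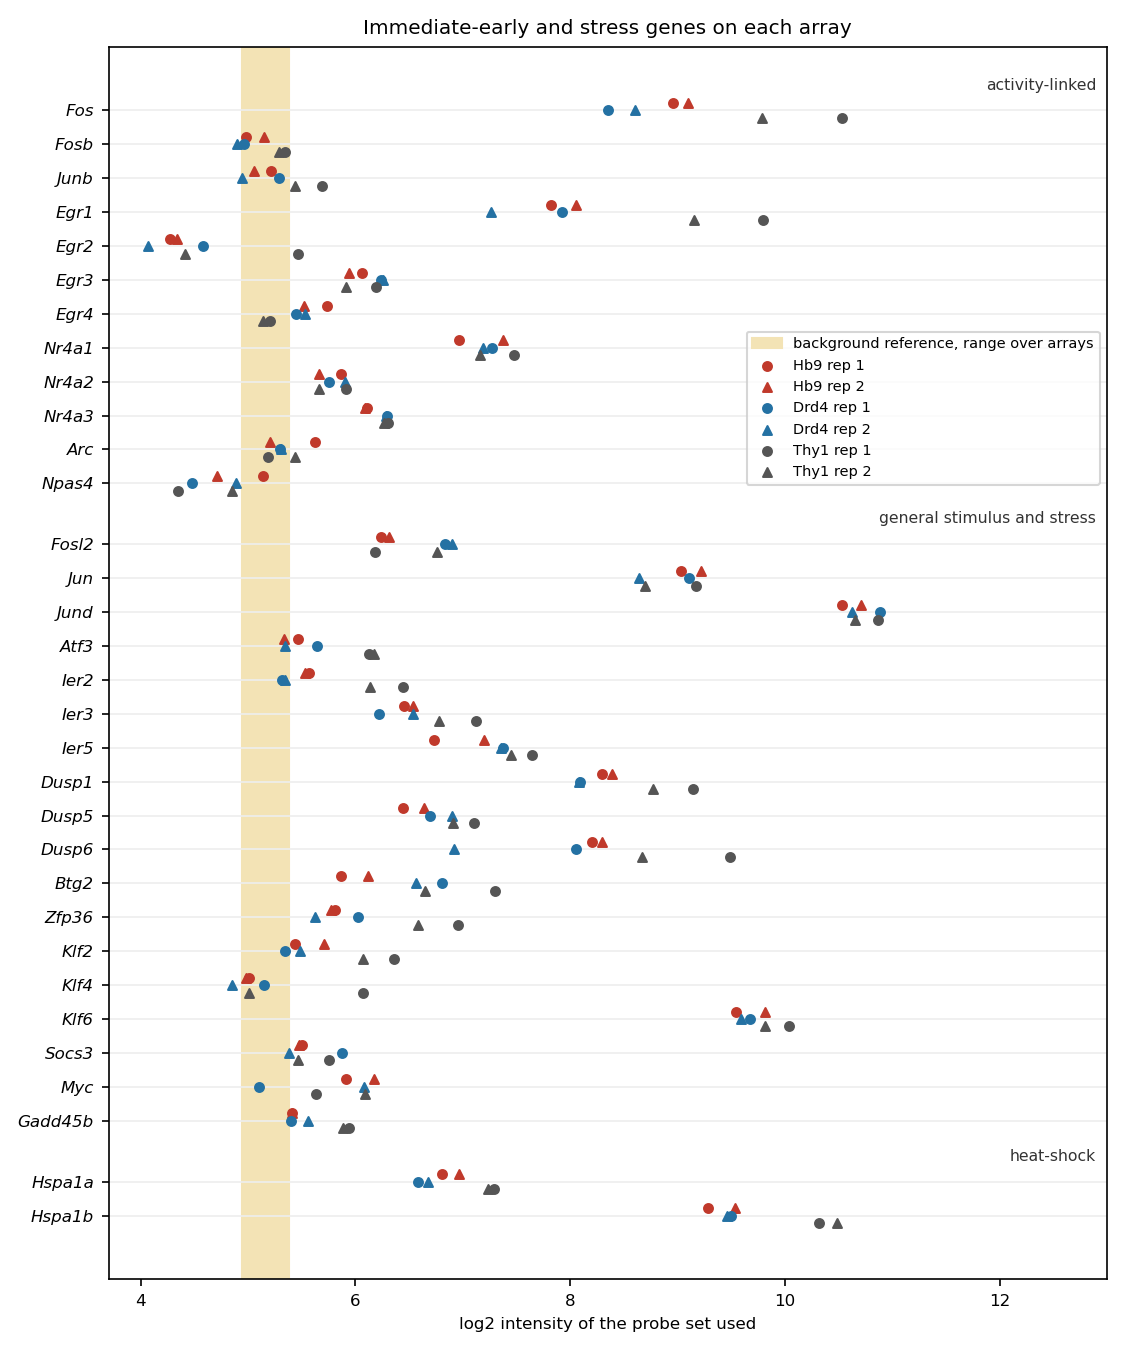
Log2 intensity of the probe set used for each of the 32 members on each of the 6 arrays (horizontal axis), with Hb9, Drd4 and Thy1 arrays in colour and replicates as circles and triangles. The shaded band is the background reference over the arrays, 4.95 to 5.38. Fos, Egr1, Dusp1, Zfp36 and Hspa1b were brighter on both Thy1 arrays than on the 4 GFP-line arrays, while Npas4, Egr2 and Fosb lay below, in or just above the band.

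In cells of the Hb9 line, 8 of the 32 members (25%) were lower than in Thy1+ cells and 0 were higher, where 3.19% of all genes tested were called lower, 3.52% higher and 6.71% in either direction (limma, Benjamini-Hochberg adjusted p under 0.05). The lower members were Fos, Egr1, Atf3, Ier2, Btg2, Hspa1b, Zfp36 and Klf2. The median log2 difference of the 32 was -0.44, against 0.04 over all genes. Both Hb9 arrays were below both Thy1 arrays in 20 members and above both in 1, Egr4, where 21% and 33.2% of all genes had these orders. Of the 32 members, 17 had an unadjusted p under 0.05.

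The Drd4 line showed 10 of 32 members (31.2%) lower than in Thy1+ cells and 0 higher, against 3.96% and 1.51% of all genes (5.47% in either direction). Fos, Egr1, Atf3, Ier2, Hspa1b, Zfp36 and Klf2 were called here as well as in Hb9, and Dusp1, Dusp6 and Hspa1a were called here and not in Hb9. Btg2 was called in Hb9 and not here. The median of the 32 differences was -0.34, against 0.02 over all genes, and 15 members had an unadjusted p under 0.05. Both Drd4 arrays were below both Thy1 arrays in 17 members and above both in 3, Egr3, Egr4 and Fosl2, against 19.3% and 21.8% of all genes. The Hb9 and Drd4 comparisons share the same 2 Thy1 arrays, so their differences are given side by side and are not independent.

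These counts changed when single arrays were left out, which leaves 1 array in a group, so a lost call need not mean a changed difference. In Hb9 the Fos difference of -1.14 became -1.07 without Hb9 replicate 1 and -0.76 without Thy1 replicate 1. That of Zfp36, -0.98, became -0.99 and -0.79. Leaving out either of these arrays also lowered the calls over all genes in that comparison. In Hb9 the 8 lower members became 0 without Hb9 replicate 1 (11 with an unadjusted p under 0.05), 2 without Hb9 replicate 2 and 1 without Thy1 replicate 1. In Drd4 the 10 became 4 without Thy1 replicate 1 and 6 without Drd4 replicate 2, and 8 to 10 without each of the other arrays. The 4 that passed in Drd4 without Thy1 replicate 1 were Fos, Egr1, Ier2 and Hspa1b, and these 4 passed in all 16 alternative settings of that comparison. With an array left out, the remaining array of its group is assumed to vary like the other groups.

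**Figure D2:**
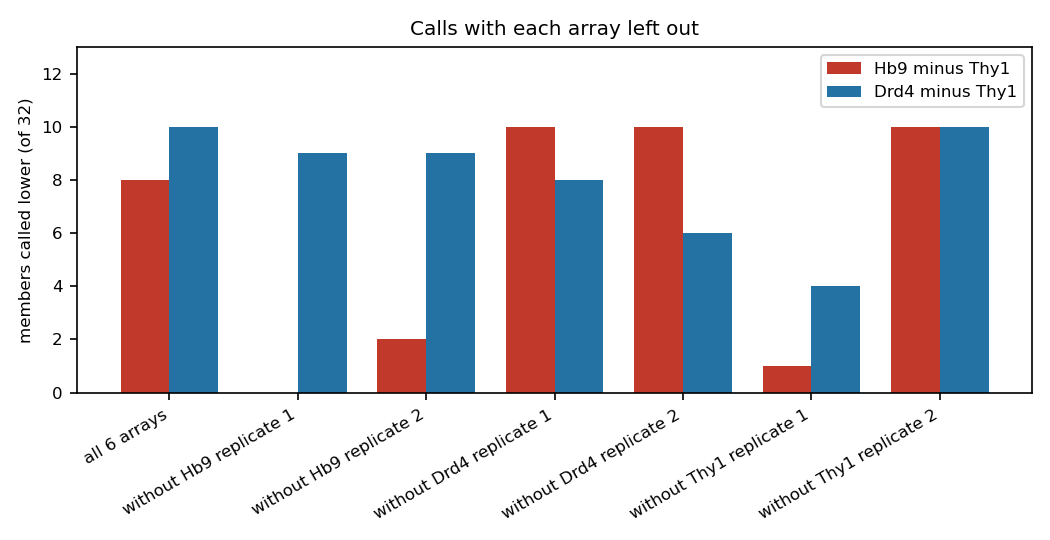
Number of the 32 members called lower against Thy1 when each array was left out in turn, for Hb9 and for Drd4, beside the number with all 6 arrays. The Hb9 count ran between 0 and 10 and the Drd4 count between 4 and 10, and leaving out Thy1 replicate 1 gave 1 in Hb9 and 4 in Drd4.

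Some markers of microglia, of endothelial cells and pericytes and of dividing cells were also lower in both lines, with 0 called higher against Thy1. Over all genes, 3.19% were called lower in Hb9 and 3.96% in Drd4. Of 10 photoreceptor markers, 0 were called in either direction. Between 4 and 6 of those 10 were at or below background on each array, so a fall in them could hardly be seen. Microglia markers, such as the complement genes C1qa to C1qc and the receptor Csf1r, were lower in 11 of 13 in each line, with median log2 differences of -2.33 in Hb9 and -2.22 in Drd4. All 13 were above background on both Thy1 arrays. Their summed intensity was 1819 and 2290 on the Hb9 arrays, 3291 and 1182 on the Drd4 arrays, and 12415 and 7251 on the Thy1 arrays. Without Thy1 replicate 1 the counts were 6 of 13 in Hb9 and 7 of 13 in Drd4, without Hb9 replicate 1 the Hb9 count was 7, and with robust moderation both were 6.

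Endothelial and pericyte markers, among them Pdgfrb and Abcc9 of pericytes, were lower in 6 of 14 in Hb9 and in 7 of 14 in Drd4. They summed to 2251 and 1858 on the Hb9 arrays, 1433 and 556 on the Drd4 arrays, and 8333 and 9457 on the Thy1 arrays. These sums lean on Rgs5, the brightest of the list on both Thy1 arrays, at 12.39 and 12.58 on the log2 scale. Rgs5 was 10.47 and 10.06 in Hb9, without a call, and 9.50 and 5.01 in Drd4, where it was called lower. The endothelial genes Pecam1, Cldn5 and Tek were at or below background on all 6 arrays. Kdr was above background on all 6 and was not called. It was 6.42 and 6.54 in Hb9, 6.51 and 6.21 in Drd4, and 6.49 on both Thy1 arrays. Flt1, also above background on all 6, was called lower in both lines. The Hb9 count was 3 without Thy1 replicate 1, and the Drd4 count was 4 with robust moderation.

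Markers of dividing cells were lower in 6 of 16 in Hb9 and 9 of 16 in Drd4, with sums of 1239 and 1331 on the Hb9 arrays, 1305 and 1058 on the Drd4 arrays, and 1909 and 2738 on the Thy1 arrays. Without Hb9 replicate 2 the Hb9 count was 2, without Hb9 replicate 1 or Thy1 replicate 2 it was 3, and without Drd4 replicate 2 or Thy1 replicate 2 the Drd4 count was 5. Of the called genes for dividing cells, Kif20a in both lines and Aurkb in Hb9 were not above background on any array. Bub1, Birc5 and Ube2c, called in Drd4, were above background on 1 array each. With genes at background on every array left out, 4 of 14 were lower in Hb9 and 8 of 14 in Drd4. Markers of Müller glia and astrocytes were lower in 2 of 13 in Hb9 and 3 of 13 in Drd4, where Vim and Apoe fell in both. In the same list Dkk3, a secreted glycoprotein gene, ran the other way in Drd4, at 9.31 and 9.02 against 7.97 and 8.13 in Thy1, and rose by 1.12 ± 0.16 (adjusted p = 0.00258). The part of these other cells in the differences of the immediate-early genes was not tested. In such bulk samples, fewer cells of a type and less RNA per cell cannot be told apart.

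**Figure D3:**
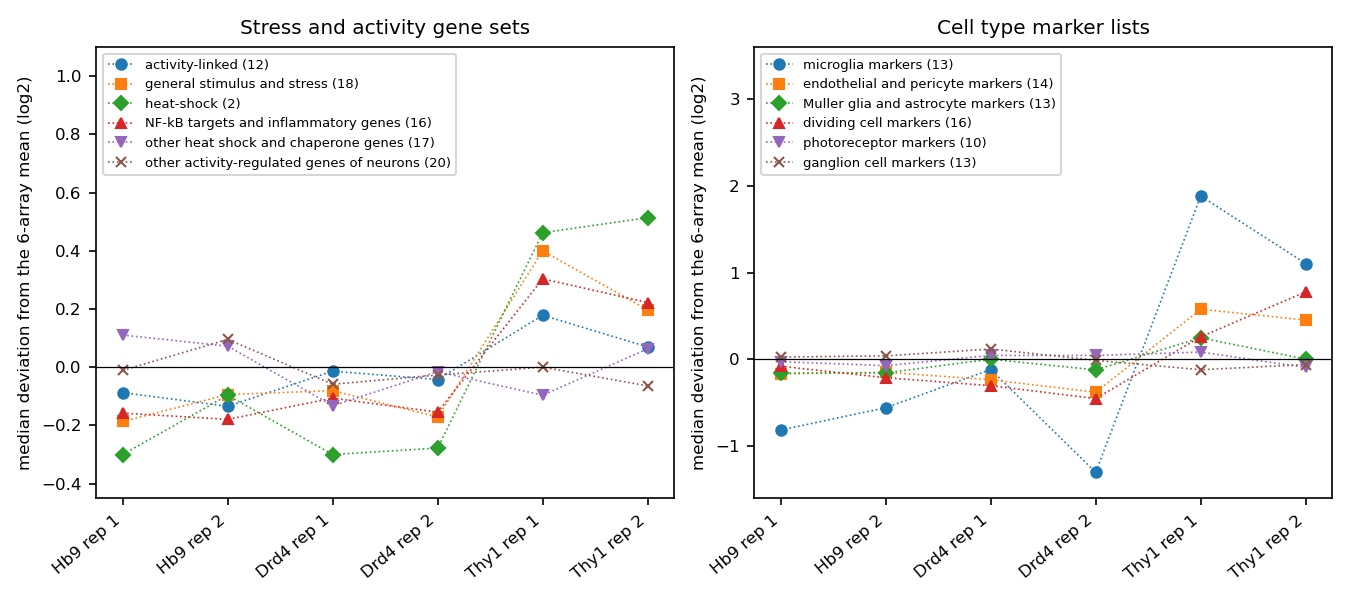
Median deviation of log2 intensity from each gene's mean over the 6 arrays (vertical axis), for the 3 classes of members and for marker lists of other cells, on each array. Lines join the values of one set and carry no order. The general and heat-shock classes stood at 0.40 and 0.46 on Thy1 replicate 1 and at 0.20 and 0.51 on Thy1 replicate 2, and the microglia markers at 1.88 on Thy1 replicate 1.

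Among the activity-linked members, 2 of 12 were lower in each line, and they were the same pair, Fos and Egr1. That is 16.7% of the class, where 3.19% of all genes were lower in Hb9 and 3.96% in Drd4. Fos encodes the AP-1 subunit most used as a mark of recent neuronal activity. Its log2 intensity was 8.96 and 9.09 in Hb9 cells, 8.36 and 8.60 in Drd4 cells, and 10.53 and 9.79 in Thy1+ cells. Every array of both GFP lines lay below the lower Thy1 array. The log2 difference from Thy1 was -1.14 ± 0.22 in Hb9 (SE, adjusted p = 0.0163, 2.20-fold) and -1.68 ± 0.22 in Drd4 (adjusted p = 0.00152, 3.21-fold).

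Egr1, a zinc finger factor of the same immediate response, was 7.82 and 8.06 in Hb9 cells, 7.92 and 7.26 in Drd4 cells, and 9.80 and 9.15 in Thy1+ cells. The gap between the lines and the Thy1 arrays exceeded the spread within any group. It amounted to -1.53 ± 0.26 in Hb9 (adjusted p = 0.00845, 2.90-fold) and -1.88 ± 0.26 in Drd4 (adjusted p = 0.00169, 3.69-fold). In Hb9 both calls were lost without Hb9 replicate 1 (adjusted p = 0.110 for Fos and 0.0626 for Egr1) and without Thy1 replicate 1 (0.0867 and 0.0598), and the Fos call also without Hb9 replicate 2 (0.0608).

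No other Egr factor was called. Egr2 was 4.27 and 4.34 in Hb9 cells, 4.58 and 4.07 in Drd4 cells, and 5.47 and 4.41 in Thy1+ cells, so only Thy1 replicate 1 was above background. Egr3 was 6.06 and 5.94 in Hb9, 6.24 and 6.26 in Drd4, and 6.19 and 5.91 in Thy1, a difference of -0.05 in Hb9 (95% interval -0.38 to 0.28) and 0.20 in Drd4 (-0.13 to 0.54). Egr4 ran the other way, at 5.74 and 5.52 in Hb9, 5.45 and 5.53 in Drd4, and 5.21 and 5.14 in Thy1. Its differences of 0.46 ± 0.14 (adjusted p = 0.0775) and 0.32 ± 0.14 (adjusted p = 0.318) did not pass the threshold.

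Fosb and Junb, which encode further AP-1 subunits, were dim. Fosb was 4.98 and 5.15 in Hb9, 4.96 and 4.89 in Drd4, and 5.34 and 5.29 in Thy1, and Junb was 5.21 and 5.06 in Hb9, 5.29 and 4.95 in Drd4, and 5.68 and 5.44 in Thy1. Both were lower on every GFP-line array than on either Thy1 array, and neither passed the test, with adjusted p of 0.283 and 0.143 in Hb9 and 0.149 and 0.194 in Drd4. Junb was not above background on either Hb9 array, so its Hb9 ratio is a bound, at least 1.19-fold lower.

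The members most closely tied to neuronal firing gave no call. Arc, a synaptic protein whose mRNA follows synaptic input, was 5.62 and 5.20 in Hb9, 5.30 and 5.31 in Drd4, and 5.18 and 5.44 in Thy1. The groups overlapped, and the 95% interval of the difference was -0.27 to 0.47 in Hb9 and -0.38 to 0.37 in Drd4. Arc lay near the background reference, which was 5.16 on Thy1 replicate 1, and below it on Hb9 replicate 2 (5.25). A fall from the Thy1 level could therefore hardly be measured in Arc. Npas4, a factor that calcium entry induces in neurons, was at 5.14 and 4.71 in Hb9, 4.47 and 4.89 in Drd4, and 4.35 and 4.85 in Thy1, below background on every array, so no difference in it could be measured.

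The Nr4a orphan nuclear receptors were detected on every array and overlapped between groups, apart from Nr4a3 in Hb9. Nr4a1 was 6.96 and 7.38 in Hb9, 7.27 and 7.19 in Drd4, and 7.47 and 7.16 in Thy1. Its difference from Thy1 was -0.15 in Hb9 (95% interval -0.56 to 0.27) and -0.09 in Drd4 (-0.50 to 0.32). Nr4a2 differed by -0.03 and 0.04 and Nr4a3 by -0.19 and 0.00 in Hb9 and Drd4, with none past the threshold. These intervals do not hold falls of the size seen for Fos and Egr1, and no test compared the genes with each other.

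**Figure D4:**
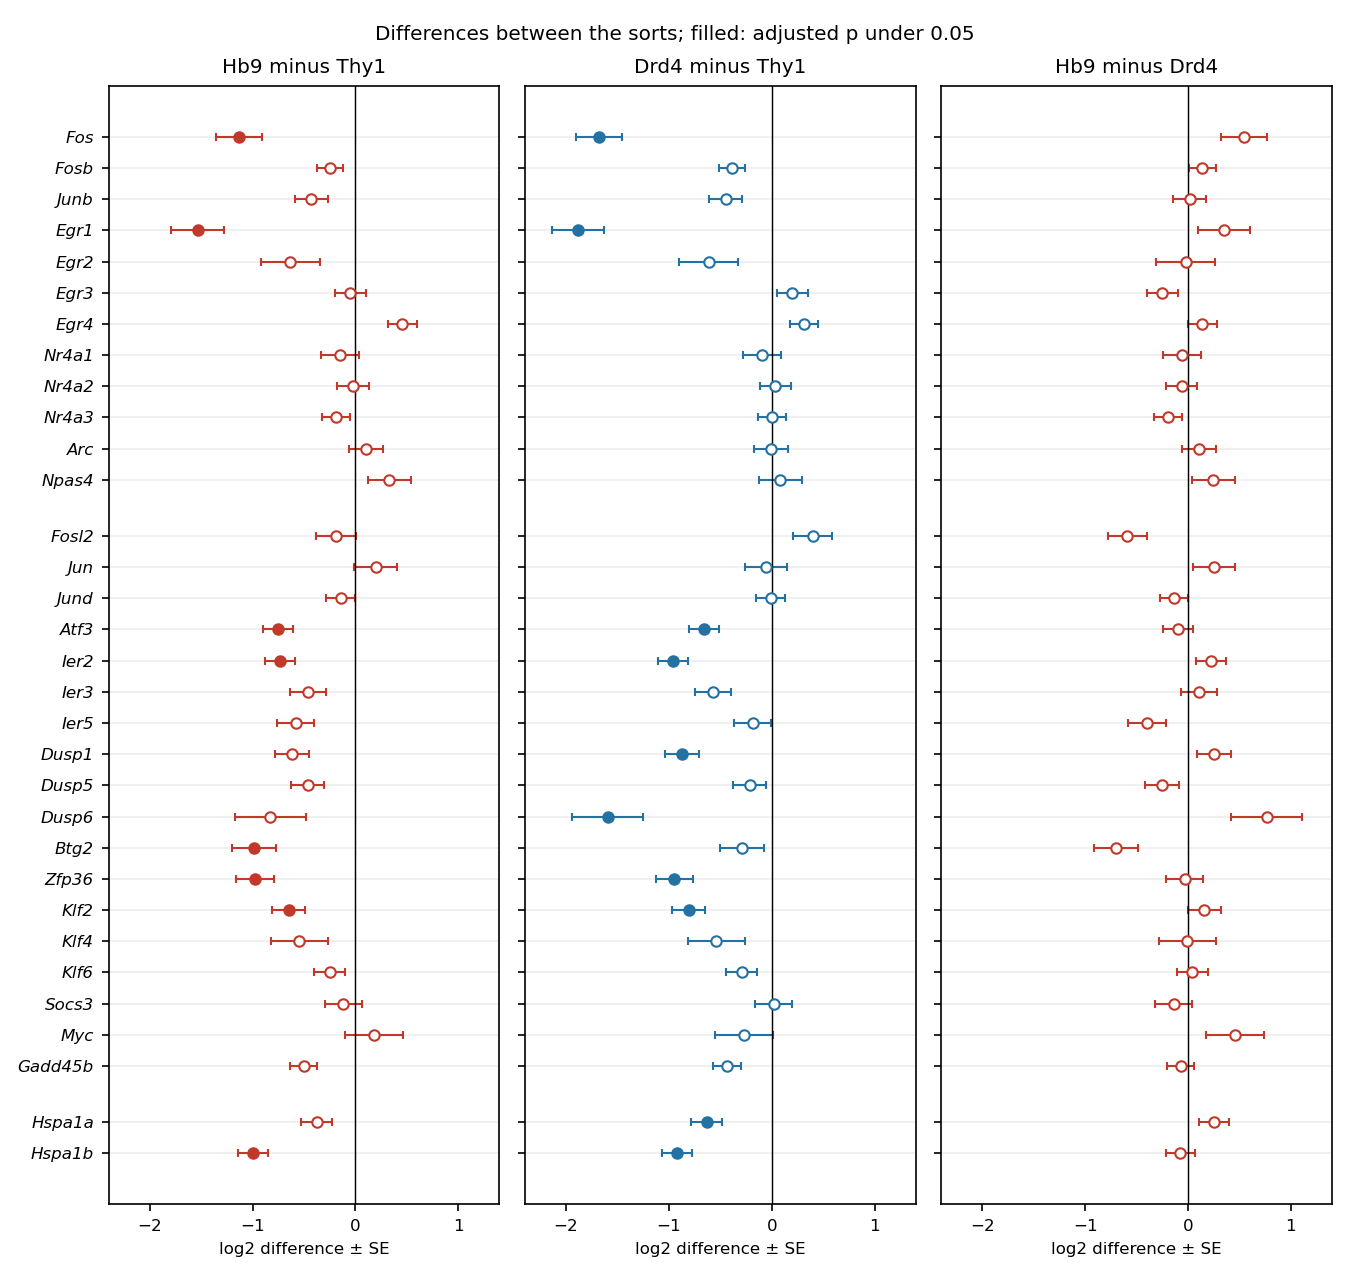
Log2 difference from Thy1 for each member in Hb9 and in Drd4, and between Hb9 and Drd4, as points with bars of 1 SE from the limma fit, ordered by class. Filled symbols passed the adjusted threshold, which 8 members did in Hb9 and 10 in Drd4, all on the lower side, and 0 did between the lines.

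Of the 18 general stimulus and stress members, 5 were lower in Hb9 and 6 in Drd4, with median differences of -0.52 and -0.36. These are 27.8% and 33.3% of the class, where 3.19% and 3.96% of all genes were lower. Without Hb9 replicate 1, Hb9 replicate 2 or Thy1 replicate 1 the Hb9 count was 0, and the Drd4 count was 3 without Drd4 replicate 2 and 1 without Thy1 replicate 1. Zfp36, which destabilises cytokine and immediate-early mRNAs and carries the CArG box printed above, was 5.81 and 5.78 in Hb9, 6.02 and 5.62 in Drd4, and 6.95 and 6.59 in Thy1. All GFP-line arrays were below both Thy1 arrays. The differences were -0.98 ± 0.18 in Hb9 (adjusted p = 0.0130) and -0.95 ± 0.18 in Drd4 (adjusted p = 0.0120).

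Ier2, a small nuclear protein of the early response, was 5.57 and 5.53 in Hb9, 5.31 and 5.34 in Drd4, and 6.44 and 6.14 in Thy1. Its replicates within each line lay close together and well apart from Thy1. It fell by 0.74 in Hb9 (SE 0.15, adjusted p = 0.0171) and by 0.96 in Drd4 (SE 0.15, adjusted p = 0.00318) on the log2 scale. Ier3 and Ier5, which belong to the same early class, had differences of -0.46 and -0.58 in Hb9 and -0.57 and -0.19 in Drd4. Neither passed, although their GFP-line arrays all lay below both Thy1 arrays.

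Atf3, a stress-induced partner of Jun that ganglion cells are known to raise after axon injury, was 5.46 and 5.33 in Hb9, 5.64 and 5.34 in Drd4, and 6.12 and 6.18 in Thy1. Klf2, a zinc finger factor abundant in endothelial and immune cells, was 5.43 and 5.71 in Hb9, 5.34 and 5.48 in Drd4, and 6.36 and 6.07 in Thy1. Neither gene had any overlap between GFP-line and Thy1 arrays. On Hb9 replicate 1 both lay just above the background reference of 5.38, so a larger fall there could hardly be measured. Atf3 differed by -0.75 ± 0.15 (adjusted p = 0.0164) and -0.66 ± 0.15 (adjusted p = 0.0286), and Klf2 by -0.65 ± 0.16 (adjusted p = 0.0407) and -0.81 ± 0.16 (adjusted p = 0.0146), in Hb9 and Drd4.

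Most of these calls were lost when single arrays were left out, which leaves 1 array in a group, whereas Ier2 in Drd4 passed in all 16 alternative settings. Without Thy1 replicate 1, Atf3 had an adjusted p of 0.0867 in Hb9 and 0.112 in Drd4, Klf2 0.286 and 0.122, Zfp36 0.108 and 0.100, and Ier2 0.147 in Hb9. Without Hb9 replicate 1 or Hb9 replicate 2 none of these 4 passed in Hb9, at adjusted p between 0.0681 and 0.283. In Drd4, leaving out Drd4 replicate 2 ended the calls of Atf3 (0.174) and Zfp36 (0.0689), and leaving out Drd4 replicate 1 that of Klf2 (0.0582). Without Thy1 replicate 2, Atf3 was not called in either line (0.0544 and 0.146). Klf2 in Hb9 was also lost with quantile normalisation (0.0640) and Atf3 in Drd4 with median centring (0.0520).

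Of the feedback genes, Dusp6 had the largest difference between the lines of the 32 members. Dusp6, a phosphatase specific for the kinase ERK, was 8.21 and 8.30 in Hb9, 8.05 and 6.92 in Drd4, and 9.49 and 8.67 in Thy1. Drd4 replicate 2 stood far below the other 5 arrays. The difference was -1.59 ± 0.34 in Drd4 (adjusted p = 0.0229) and -0.83 ± 0.34 in Hb9 (adjusted p = 0.186), and the Drd4 call did not hold without Drd4 replicate 2 (difference -1.03, adjusted p = 0.0762), without Thy1 replicate 1 (0.168) or under robust moderation (0.0756). The same Drd4 array had the lowest microglia sum, 1182, and the lowest endothelial and pericyte sum, 556, of the 6, and the part of those cells was not tested.

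Dusp1, a phosphatase acting on stress kinases, was 8.29 and 8.39 in Hb9, 8.09 and 8.08 in Drd4, and 9.15 and 8.77 in Thy1. It fell by 0.87 in Drd4 (SE 0.17, adjusted p = 0.0118), and the difference in Hb9 was -0.62 ± 0.17 (adjusted p = 0.0545). The Drd4 call did not hold without Thy1 replicate 1 (0.0864), and the Hb9 difference passed in 6 of 16 alternative settings. Dusp5, its relative in the nucleus, had differences of -0.47 in Hb9 and -0.21 in Drd4, with no call.

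Btg2, an antiproliferative gene whose promoter holds the full cAMP response palindrome, was 5.87 and 6.11 in Hb9, 6.81 and 6.56 in Drd4, and 7.30 and 6.65 in Thy1. A second Btg2 probe set, above background on all 6 arrays, gave differences of -0.33 in Hb9 and -0.29 in Drd4, without a test. On the probe set used, Btg2 fell by 0.98 in Hb9 (SE 0.21, adjusted p = 0.0252), while the Drd4 arrays overlapped Thy1 at -0.29 ± 0.21. That Hb9 call was lost without Hb9 replicate 1 (0.173), Hb9 replicate 2 (0.0646) or Thy1 replicate 1 (0.177), and with the mean of both probe sets (0.0557). Gadd45b, a stress sensor of growth arrest, was 5.41 and 5.41 in Hb9, 5.40 and 5.56 in Drd4, and 5.94 and 5.89 in Thy1, a difference of -0.50 ± 0.13 in Hb9 (adjusted p = 0.0508) and -0.43 ± 0.13 in Drd4 (adjusted p = 0.113). It passed in 9 of 16 alternative settings in Hb9 and in 1 of 16 in Drd4.

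Several general members gave no call against Thy1. Jun was 9.03 and 9.22 in Hb9, 9.11 and 8.64 in Drd4, and 9.17 and 8.70 in Thy1, with a difference of 0.20 in Hb9 (95% interval -0.26 to 0.65) and -0.06 in Drd4 (-0.52 to 0.40). Jund, the AP-1 subunit that most cells hold without a stimulus, was 10.53 and 10.70 in Hb9, 10.89 and 10.62 in Drd4, and 10.87 and 10.66 in Thy1, differing by -0.14 and -0.01. Neither passed the test. Klf6, Fosl2, Socs3 and Myc were detected on all 6 arrays with no call against Thy1, and their differences lay between -0.29 and 0.40.

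Klf4 showed how much 1 Thy1 array could carry. It was 5.01 and 4.98 in Hb9, 5.15 and 4.85 in Drd4, and 6.07 on Thy1 replicate 1, with Thy1 replicate 2 at background, and it was above background only on Thy1 replicate 1 and Drd4 replicate 1. In both comparisons the groups overlapped and neither difference passed, at -0.55 in Hb9 (95% interval -1.16 to 0.07) and -0.54 in Drd4 (-1.16 to 0.08). Without Thy1 replicate 1 the Klf4 differences were -0.01 and -0.0044 (adjusted p = 0.992 and 0.999), and those of Egr2 -0.11 and -0.08 (0.907 and 0.961). Without Thy1 replicate 2, Klf4 was lower in both lines (adjusted p = 0.0137 and 0.0113), as was Egr2 (0.0173 and 0.0182).

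Both inducible Hsp70 genes were lower in Drd4 and 1 of 2 in Hb9. Hspa1b was 9.28 and 9.53 in Hb9, 9.50 and 9.46 in Drd4, and 10.32 and 10.49 in Thy1. The 4 GFP-line arrays agreed closely and lay below both Thy1 arrays. Hspa1b fell 1.99-fold in Hb9 (SE 0.14 on the log2 scale, adjusted p = 0.00426) and 1.90-fold in Drd4 (SE 0.14, adjusted p = 0.00366). In Hb9 it was not called without Hb9 replicate 1 (adjusted p = 0.0511).

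Hspa1a, its near-identical neighbour, was 6.80 and 6.96 in Hb9, 6.59 and 6.67 in Drd4, and 7.29 and 7.23 in Thy1. The difference was -0.63 ± 0.15 in Drd4 (adjusted p = 0.0349) and -0.38 ± 0.15 in Hb9 (adjusted p = 0.164). The Drd4 call was lost in 9 of 16 alternative settings, including each array left out in turn. Because probes may bind both transcripts, which of the pair carried the difference is uncertain. The other 2 probe sets of Hspa1b had differences of -1.42 and -1.41 in Hb9 and of -1.32 and -1.14 in Drd4.

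Probe sets of other members disagreed. A second probe set of Klf6 was 6.11 and 6.13 in Hb9, 7.20 and 7.40 in Drd4, and 7.78 and 7.37 in Thy1, a difference of -1.46 in Hb9, where the brightest gave -0.25. A second probe set of Jun differed by -0.18 in Hb9 and -0.90 in Drd4, where the brightest gave 0.20 and -0.06. Socs3, a feedback inhibitor of cytokine signalling, had a brightest probe set at -0.12 in Hb9 and 0.02 in Drd4, and its 2 dimmer sets gave -1.33 and -0.96 in Hb9 and -0.58 and -0.55 in Drd4. Both dimmer sets were above background on 2 arrays only, Thy1 replicate 1 and Drd4 replicate 1, so their differences carry little weight. The other probe sets of Klf6, Jun and Socs3 were chosen for their disagreement and are given without a test.

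**Figure D5:**
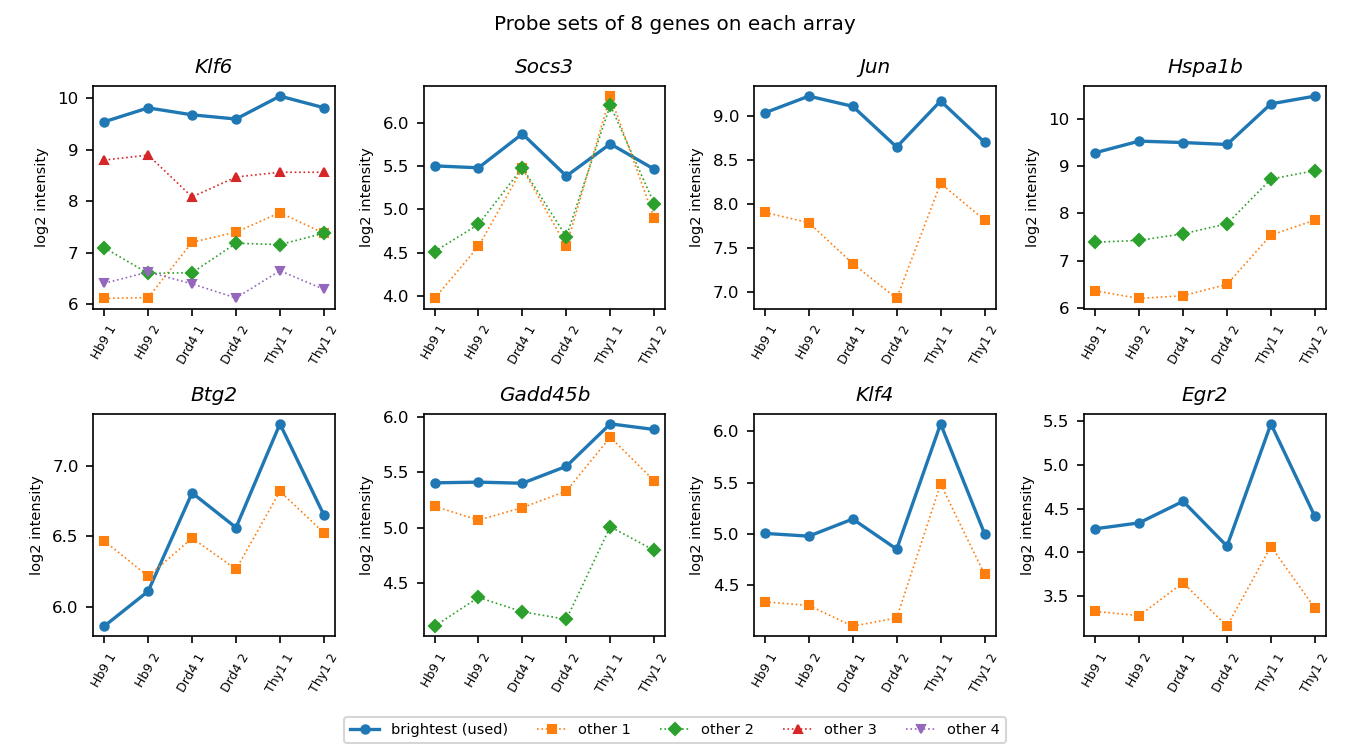
Log2 intensity of every probe set of 8 members on each array (Hb9, Drd4, Thy1 from left to right), with the brightest, used set as a solid line; lines carry no order. The 3 Hspa1b sets share one pattern, whereas the sets of Klf6, Jun and Socs3 do not.

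Between the GFP lines, 0 of 32 members were called lower and 0 higher in Hb9 than in Drd4 (limma), where 2.06% and 4.06% of all genes were (6.12% in either direction). The median difference was 0.01 and 3 members had an unadjusted p under 0.05. Those were Fos, at 0.55 ± 0.22 (adjusted p = 0.208), Fosl2, at -0.59 ± 0.19 (adjusted p = 0.111), and Btg2, at -0.70 ± 0.21 (adjusted p = 0.0950). Both Hb9 arrays lay above both Drd4 arrays in 6 members and below in 6, against 30.6% and 19.1% of all genes.

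For Dusp6, the call in Drd4 and not in Hb9 does not show a difference between the lines, since Hb9 minus Drd4 was 0.77 with a 95% interval of -0.0008 to 1.53. For Hspa1b that interval was -0.39 to 0.25, for Egr1 -0.22 to 0.92 and for Zfp36 -0.43 to 0.37. Without Drd4 replicate 1, Dusp6 was higher in Hb9 (adjusted p = 0.0213), and without Drd4 replicate 2, Myc was (adjusted p = 0.0245). Without either Thy1 array, Fosl2 and Btg2 passed as lower in Hb9. The second probe set of Btg2 differed by -0.03 between the lines, where the one used gave -0.70.

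The Thy1 arrays differed from each other in these genes. Thy1 replicate 1 was brighter than Thy1 replicate 2 in 26 of 32 members, by a median of 0.25 on the log2 scale, against 8684 of all 18193 genes. The order held in 10 of 12 activity-linked and 15 of 18 general members, and in 1 of 2 heat-shock members. All 13 microglia markers were also brighter on Thy1 replicate 1, with a median of 0.71, while 5 of 14 endothelial and pericyte markers and 2 of 16 dividing cell markers were. Within the lines, replicate 1 was the brighter in 12 of 32 members in Hb9 and 18 of 32 in Drd4. This was not tested, as 2 arrays of a group allow no test between them.

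Related genes outside the 32 members give the setting. Of 17 other heat shock and chaperone genes, Cryab was the only one called against Thy1 with all arrays, at -1.89 ± 0.21 in Hb9 (adjusted p = 0.00121) and at least 5.36-fold lower in Drd4 (adjusted p = 1.46e-05). Cryab encodes a small heat shock protein that is also abundant in muscle-type and glial cells. The median of these 17 was 0.13 in Hb9 and 0.02 in Drd4, against -0.69 and -0.78 for Hspa1a and Hspa1b.

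Of 20 other activity-regulated genes of neurons, 0 were lower in either line, near the shares of all genes (3.19% in Hb9, 3.96% in Drd4). In Hb9, 3 were higher than in Thy1+ cells, namely Scg2, a granin of secretory vesicles (1.13 ± 0.14, adjusted p = 0.00242), Rem2, a small GTPase (0.98 ± 0.19, adjusted p = 0.0153), and Rgs2, a regulator of G protein signalling (0.87 ± 0.18, adjusted p = 0.0207). Over all genes, 3.52% were called higher in Hb9. In Drd4, 0 of the 20 were called and 2 had an unadjusted p under 0.05. Scg2 passed in all 16 alternative settings, whereas Rem2 was lost in 3 and Rgs2 in 5, each without Hb9 replicate 1, Hb9 replicate 2 or Thy1 replicate 1 among them. Scg2 and Nfil3, a circadian repressor, were higher in Hb9 than in Drd4, by 1.15 ± 0.14 (adjusted p = 0.00129) and 0.99 ± 0.22 (adjusted p = 0.0255), and the Nfil3 call was lost in 4 settings.

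Of 16 NF-kB targets and inflammatory genes, which microglia use heavily, 4 were lower in each line, with medians of -0.46 in Hb9 and -0.48 in Drd4. That is 25% of the list, where 3.19% of all genes were lower in Hb9 and 3.96% in Drd4. The chemokine gene Ccl3 fell by 2.01 in Hb9 (SE 0.36, adjusted p = 0.0116) and by 1.76 in Drd4 (SE 0.36, adjusted p = 0.0169). Icam1, an adhesion molecule, was lower by at least 1.35-fold in Hb9 and at least 1.61-fold in Drd4. The Hb9 count was 0 without Hb9 replicate 1 and 1 without Hb9 replicate 2 or Thy1 replicate 1, and the Drd4 count was 2 without either Thy1 array. The Ccl3 call was lost with robust moderation in both lines.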

How the data were processed

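Probe set intensities of 6 Affymetrix arrays, on a linear scale, were used as deposited; their background correction, summarisation and normalisation are steps not given in the sources used here. Among 45101 probe sets, 34945 named 1 gene in the array annotation, 932 named several and 9160 none, and 64 were controls. The log2 of each intensity was taken without an offset, and the brightest probe set by mean log2 was kept for each of 18193 genes. A mean was fitted to each of 3 groups with limma 3.58.1 in R 4.3.3, with variances moderated along an intensity trend (prior 6.98 and residual 3 degrees of freedom). Tests were two-sided with Benjamini-Hochberg adjustment over all genes at 0.05, and the script was tested on simulated data. The number of arrays limits precision, and the median SE of a difference was 0.15. Fold bounds ("at least") set a group at background on both arrays to the background reference. Settings varied were normalisation, centring, probe set rule, dim genes, trend, robust moderation, array weights, replicate block, an offset of 16, the groups fitted and each array left out. No batch is given. The members and lists were chosen with earlier results of these data known. Text names all members, up to 3 called genes per list and disagreeing probe sets. List genes without a probe set of their own were not analysed here.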

Additional observations from a re-analysis of the deposited data

How the results depend on the processing

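Leaving out each array in turn gave 0 to 10 members lower in Hb9 than in Thy1 (8 with all arrays), 4 to 10 lower in Drd4 (10 with all), and between the lines 0 to 2 lower and 0 to 1 higher in Hb9 than in Drd4 (0 and 0 with all). The other settings gave 7 to 10 lower in Hb9 and 8 to 11 lower in Drd4. Fitting only the compared groups gave 2 members, Fosl2 and Btg2, lower in Hb9 than in Drd4, with fewer samples in the fit. Over all 96 differences of members, 46 calls were lost and 31 gained across settings, and none reversed. Of the called genes of other lists, Camk4 alone turned sign, to -0.0856 in Hb9 against Thy1 and -0.21 in Hb9 against Drd4 with the mean of all probe sets. The replicate block gave 7 lower in Hb9 (Klf2 lost, adjusted p = 0.05004), 9 lower in Drd4 (Hspa1a lost, adjusted p = 0.0517) and 0 between the lines. Deviations of same-numbered arrays correlated at -0.28 between Hb9 and Drd4, -0.19 between Hb9 and Thy1 and 0.37 between Drd4 and Thy1, so the numbers were not taken to pair the samples. Over all genes, higher calls in Hb9 against Thy1 were 640 of 1220 (52.5%) and with quantile normalisation 361 of 951 (38%); in Drd4 against Thy1 they were 27.5% and with median centring 37.3%; between the lines they were 66.4% and with quantile normalisation 55.1% or median centring 55.6%. Leaving out Hb9 replicate 1 or Thy1 replicate 1 lowered all calls in Hb9 against Thy1 to 315 and 380. Low signal limits Npas4, Egr2, Klf4, Fosb and Junb, which were at or below background on 3 or more arrays. It also limits Arc, which was below background on Hb9 replicate 2 and near it on Thy1 replicate 1. Atf3, Klf2 and Gadd45b were above background on all 6 arrays. They lay near it on Hb9 replicate 1, at 5.46, 5.43 and 5.41 against 5.38.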

Other observations

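Over all genes, 3.19% were called lower and 3.52% higher in Hb9 than in Thy1, and 3.96% lower in Drd4. Genes that act upstream of the immediate-early response gave 1 lower call (5.56%) and 1 higher in Hb9, and 3 lower (16.7%) in Drd4. Of 18 such kinases and factors, Elk3, a partner of serum response factor that is also prominent in vascular cells, was lower in both lines, by at least 3.57-fold in Hb9 (adjusted p = 0.000756) and at -2.47 ± 0.24 in Drd4 (adjusted p = 0.000232). Elk4, another such partner, and Mef2c, a factor of neurons and microglia, were lower in Drd4, at -0.81 ± 0.16 (adjusted p = 0.0148) and -2.46 ± 0.48 (adjusted p = 0.0133). Camk4, a calcium-dependent kinase that acts on the cAMP response element binding protein, was higher in Hb9 than in Thy1 (0.72 ± 0.16, adjusted p = 0.0277) and than in Drd4 (0.72 ± 0.16, adjusted p = 0.0281), but with the mean of all its probe sets the sign turned, to -0.0856 and -0.21, and neither passed. The Elk3 calls held in all 16 alternative settings, the Camk4 calls were lost in 5 and 4 of them, the Elk4 call in 4 and the Mef2c call in 2, which were robust moderation and leaving out Thy1 replicate 1.

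The 14 genes of the unfolded protein and integrated stress responses gave 0 calls against Thy1 in limma. Of all genes, 6.71% were called in Hb9 and 5.47% in Drd4, so 0 of 14 does not set this list apart. Among the 14, 4 had an unadjusted p under 0.05 in Hb9 and 2 in Drd4. Their medians were 0.10 in Hb9 and -0.08 in Drd4. Creld2, a chaperone of the endoplasmic reticulum, was higher in Hb9 than in Drd4 (0.75 ± 0.18, adjusted p = 0.0410), a call lost in 5 of 16 settings. Of 22 other stimulus and stress genes, 3 were lower in Hb9, led by Sgk1, a stress-regulated kinase (-1.39 ± 0.29, adjusted p = 0.0212), with Ccn1 and Btg1, and all 3 were lost without Hb9 replicate 1, Hb9 replicate 2 or Thy1 replicate 1. In Drd4, Ccn2, a matrix protein gene, was the only one of the 22 called, at least 1.98-fold lower (adjusted p = 0.000642).

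The 18S ribosomal RNA control at the 5' end had intensities of 1125 and 1071 on the Hb9 arrays, 2457 and 3262 on the Drd4 arrays, and 2866 and 2772 on the Thy1 arrays. The control at the 3' end ran otherwise, at 1003 and 903 on the Hb9 arrays, 480 and 624 on the Drd4 arrays, and 732 and 865 on the Thy1 arrays. The part of either in any difference was not tested.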
